A study of Homo sapiens with 9 samples.

Results

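CD9, CD63, CD81, CD82, CD151, CD53, CD37, TSPAN4, TSPAN9 and TSPAN33 are human tetraspanin genes, and each was found exactly once among the 63241 gene IDs of the deposited tables by its Ensembl ID. The 10 genes were described over 9 RNA-seq libraries of MEG-01, a human megakaryoblast line grown from a patient with chronic myeloid leukaemia in blast crisis. There were 3 libraries of cells given As2S2 (arsenic disulfide), 3 of cells given PMA (the phorbol ester that activates protein kinase C and drives such lines towards megakaryocytes) and 3 untreated control libraries. All groups therefore share 1 leukaemic line that carries the BCR-ABL1 fusion, the labels state neither dose nor duration, and nothing states that the 3 libraries of a group came from separate cultures. The p-values below then measure only the spread between these libraries, which may be technical. The organism label of control replicate 1 was not human, although its column carried the same human IDs as the others.

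Tetraspanins are small proteins that cross the membrane several times and gather integrins, immunoglobulin-superfamily proteins and proteases into patches of membrane. Platelets and their parent cells, megakaryocytes, carry many of them: CD9 is among the most abundant proteins of the platelet surface, and CD63 sits in dense granules and lysosomes and reaches the surface when a platelet is activated. CD9, CD63 and CD81 are also the usual markers of extracellular vesicles. The series title names megakaryopoiesis and platelet production as the subject, and the comparisons here ask how the transcripts of these genes differed in As2S2 and PMA cells from control cells, and between both treatments.

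Library totals ran from 18200501 to 20366870 counts, and single members had between 47 and 10813 counts in a library. All 10 members passed the filter on low counts, which left 14592 genes. Levels below are CPM (counts divided by the size of the library and brought to a common size), scaled by TMM, a method that sets the typical gene equal between libraries, and fold changes are log2 values with their standard error. Pairs of replicates that held control replicate 2 or As2S2 replicate 1 gave a chi-square that averaged 12.0 to 15.2 over genes, whereas the remaining pairs gave 2.42 to 3.46, so those libraries stood apart. Control replicate 2 had the highest control level for 9 of the 10 members, and As2S2 replicate 1 had the lowest As2S2 level for 8. Mitochondrially encoded genes took 7.62% ± 0.461 of the counts in As2S2 cells, 10.1% ± 0.112 in PMA cells and 8.04% ± 0.150 in control cells (SD, n = 3 each), and their part in the results was not tested. Of 13 megakaryocyte markers 10 were tested, and they were counted at an adjusted p under 0.05. With As2S2 4 were higher and 1 lower, beside 20.3% and 19.6% of all genes tested (39.9% in either direction). With PMA 7 were higher and 1 lower, beside 30.8% and 31.1% of all genes (61.9% in either direction). The platelet chemokine PPBP was at 2.10 CPM in As2S2 cells, 12.6 in PMA cells and 0.519 in control cells. ITGA2B, the marker that was lower in both treatments, was at 570 CPM in As2S2 cells, 347 in PMA cells and 719 in control cells, whereas PF4 had 0 counts in As2S2, 2 in PMA and 1 in control libraries and GP5 had 0, 0 and 1. The 13 summed to 822 to 975 CPM in As2S2 libraries, 964 to 1010 in PMA libraries and 921 to 1074 in control libraries, sums in which ITGA2B had a large part. Counts of CD82 were whole numbers in 2 of the 9 libraries, CD151 in 4, CD37 in 5, CD9 in 8 and the other members in all 9, the rest being estimates. In bulk libraries fewer cells expressing a gene and less of its RNA per cell cannot be told apart.

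PMA moved most of the members and As2S2 fewer of them, a gap that all genes tested showed too. The As2S2 count of members was close to the share of all genes called in either direction. Against control, 7 of 10 were higher in PMA cells (CD9, CD63, CD81, CD82, CD151, CD53 and TSPAN9) and 2 were lower (CD37 and TSPAN33) at an adjusted p under 0.05, where 30.8% of all genes tested were higher and 31.1% lower (61.9% in either direction). In As2S2 cells 4 of 10 were higher (CD63, CD82, CD151 and TSPAN9), where 20.3% of all genes were higher and 19.6% lower (39.9% in either direction). None of the 10 was lower in As2S2 cells in edgeR, 1 (TSPAN4) was lower at an unadjusted p under 0.05, and the same gene was called lower by DESeq2 but not by limma-voom. The median log2 fold change of the members was 0.57 for PMA and 0.15 for As2S2, and the median of all genes tested was 0.00 in both comparisons. Set directly against PMA, As2S2 cells had 2 members higher (CD37 and TSPAN33; 30.9% of all genes) and 4 lower (CD9, CD63, CD53 and TSPAN9; 30.6% of all genes, with 61.4% in either direction). Counted by libraries that did not overlap, 3 members were higher and 0 lower for As2S2 against control, where 23.1% of all genes were higher and 22.7% lower in that way. PMA against control had 7 members higher and 2 lower without overlap, where all genes had 33.8% and 33.7%. As2S2 against PMA had 2 members higher and 6 lower without overlap, and 33.6% of all genes lay in each direction. Without control replicate 2 and As2S2 replicate 1, the counts were 7 higher and 0 lower for As2S2 and 7 higher and 2 lower for PMA. Of 14902 genes tested in that way, 3791 were higher and 3698 lower for As2S2, and 5121 higher and 4955 lower for PMA. Both libraries were picked after their values were seen. They were the highest control and the lowest As2S2 library for most members, so leaving them out raises the As2S2 values by itself.

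**Figure D1:**
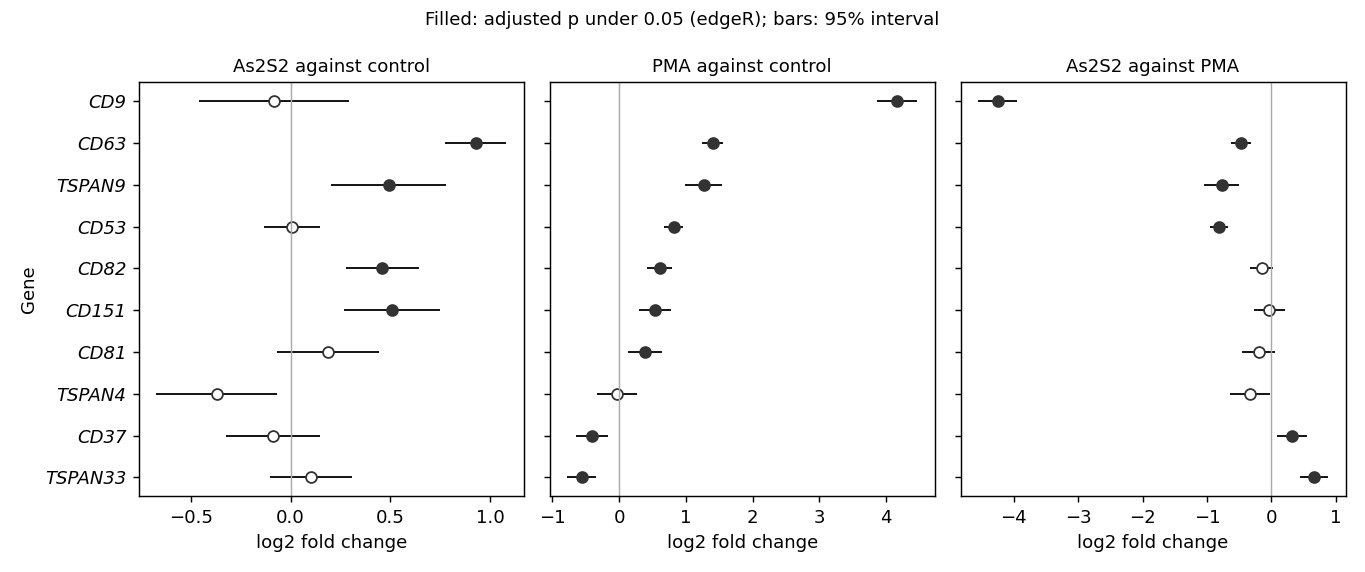
Log2 fold change of each of the 10 tetraspanin genes (rows) in As2S2 against control, PMA against control and As2S2 against PMA, with points for the estimate and bars for its 95% interval; each panel has its own axis, and filled points are those with an adjusted p under 0.05. CD9 stands far from the other genes in both comparisons with PMA, at 4.17 against control, and at -0.08 in As2S2 against control.

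The stretches of 250 bases before a RefSeq start of each of 4 members (GRCh38.p14) are shown because CD9, CD63 and CD53 rose with PMA to different degrees while TSPAN33 fell. They are CD9 at chr12:6200150-6200399 on the plus strand, CD63 at chr12:55729010-55729259 on the minus strand, CD53 at chr1:110872898-110873147 on the plus strand and TSPAN33 at chr7:129144457-129144706 on the plus strand. Capitals mark matches, on either strand, to the AP-1 letters TGANTCA, the E-box CACGTG or the GC box GGGCGG, and adjoining GC boxes run together.
CD9: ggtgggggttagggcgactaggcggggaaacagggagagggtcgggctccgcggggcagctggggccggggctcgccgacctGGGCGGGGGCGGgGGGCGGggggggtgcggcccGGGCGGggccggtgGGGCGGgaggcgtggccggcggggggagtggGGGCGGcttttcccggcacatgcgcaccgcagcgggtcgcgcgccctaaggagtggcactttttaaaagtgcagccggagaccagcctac
CD63: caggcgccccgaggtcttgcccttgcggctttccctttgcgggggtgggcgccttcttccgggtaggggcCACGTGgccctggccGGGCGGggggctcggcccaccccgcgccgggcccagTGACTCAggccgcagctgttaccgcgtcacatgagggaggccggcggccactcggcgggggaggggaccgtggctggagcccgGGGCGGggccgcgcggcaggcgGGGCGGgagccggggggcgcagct
CD53: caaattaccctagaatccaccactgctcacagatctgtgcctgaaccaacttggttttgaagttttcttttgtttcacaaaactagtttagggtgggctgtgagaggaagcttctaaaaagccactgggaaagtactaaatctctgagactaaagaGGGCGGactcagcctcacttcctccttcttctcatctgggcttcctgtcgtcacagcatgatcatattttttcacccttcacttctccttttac
TSPAN33: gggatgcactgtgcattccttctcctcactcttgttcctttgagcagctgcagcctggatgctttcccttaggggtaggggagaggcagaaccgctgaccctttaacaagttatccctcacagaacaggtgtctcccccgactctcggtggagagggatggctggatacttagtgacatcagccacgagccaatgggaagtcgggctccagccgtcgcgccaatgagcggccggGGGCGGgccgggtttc
The CD63 window held 1 AP-1 match, 129 bases before the start, 1 E-box match at 180 bases and 3 GC boxes. It was 1 of 8 windows listed for CD63, and its start lay 211 bases from that of the GENCODE transcript used to choose it. CD9 had 4 listed windows (0 bases away), CD53 had 2 (6 bases) and TSPAN33 had 1 (185 bases). Which start the cells used was not measured. The CD9 window held 6 GC boxes and neither other motif, and the CD53 and TSPAN33 windows held 1 GC box each. Windows were found for 6 of the 10 members, and AP-1 letters stood in 1 of the 6 and in 6.57% of 35116 RefSeq windows of the same length. E-box letters stood in 1 of the 6 and in 6.34% of all windows, and GC boxes in all 6 and in 42.6%. These matches describe letters only, and binding was not measured.

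CD9, which on platelets is found with the integrin of ITGA2B and ITGB3, was the member that PMA changed most. It had 61.3, 59.6 and 52.0 CPM in PMA replicates 1 to 3, against 2.54, 3.72 and 3.38 CPM in the control replicates. In raw counts these were 994, 1032 and 967 in PMA libraries and 55, 72 and 76 in control libraries. Every PMA library lay more than 10 times above every control library. PMA changed CD9 by a log2 value of 4.17 ± 0.14 (17.9-fold, adjusted p = 5.39e-13), and 123 of the 14592 genes tested (0.843%) had a higher one. In As2S2 cells CD9 had 3.18, 3.42 and 2.46 CPM, which overlapped the control libraries. Its log2 difference from control was -0.08 ± 0.18 (adjusted p = 0.747), with a 95% interval from -0.46 to 0.29. As2S2 cells therefore lay below PMA cells by a log2 fold change of -4.25 ± 0.14 (adjusted p = 5.44e-13).

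CD63, the granule and late endosome tetraspanin and a receptor for the protease inhibitor TIMP1, was higher in both treatments and higher with PMA than with As2S2. It had 405, 455 and 458 CPM in As2S2 libraries, 634, 611 and 582 CPM in PMA libraries and 225, 247 and 221 CPM in control libraries. The 3 groups did not overlap. Against control, the log2 fold change was 0.93 ± 0.07 for As2S2 (1.90-fold, adjusted p = 9.11e-08) and 1.40 ± 0.07 for PMA (2.64-fold, adjusted p = 9.55e-11). The direct difference, As2S2 against PMA, was -0.47 ± 0.07 (adjusted p = 2.82e-05). On the deposited TPM scale, as log2(TPM + 0.1), that direct difference was -0.10 and was no longer called (adjusted p = 0.132), while CD63 stayed higher than control in both treatments.

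TSPAN9, a platelet tetraspanin found near the collagen receptor GPVI, followed the same order at a much lower level. It had 7.10, 8.51 and 7.95 CPM in As2S2 libraries, 13.4, 13.9 and 12.9 in PMA libraries and 4.94, 6.41 and 5.43 in control libraries, so each group stood clear of the others. Its log2 fold change was 1.27 ± 0.13 for PMA (adjusted p = 4.23e-07), 0.49 ± 0.14 for As2S2 (adjusted p = 0.00873) and -0.77 ± 0.13 for As2S2 against PMA (adjusted p = 6.84e-05). The As2S2 call was lost on the TPM scale, with an adjusted p of 0.122 at log2(TPM + 1) and 0.141 at log2(TPM + 0.1).

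CD151, the partner of laminin-binding integrins, was higher in both treatments by like amounts in TMM-scaled counts. It had 145, 183 and 178 CPM in As2S2 libraries, 172, 167 and 177 in PMA libraries and 103, 145 and 107 in control libraries. Control replicate 2 reached the lowest As2S2 library, so those groups met, while PMA libraries lay above all controls. CD151 had a log2 fold change of 0.51 ± 0.11 for As2S2 (adjusted p = 0.00204) and 0.54 ± 0.11 for PMA (adjusted p = 0.000612), and As2S2 against PMA was -0.03 ± 0.11 with an interval from -0.27 to 0.21. CD151 overlaps POLR2L on the opposite strand, which had 3076 counts in As2S2 libraries, 4227 in PMA libraries and 2161 in control libraries. No source used here gives the strand setting of the counting, so reads of the 2 genes cannot be told apart where they overlap. The PMA call of CD151 was lost on the TPM scale (log2 fold change 0.08 at log2(TPM + 0.1)). As2S2 against PMA was 0.30 there, so the amounts were alike only in TMM-scaled counts.

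CD53 and CD37 are the tetraspanins of white blood cells, and PMA moved them in opposite directions. CD53 had 148, 139 and 139 CPM in As2S2 libraries, 246, 256 and 244 in PMA libraries and 135, 140 and 149 in control libraries. PMA libraries were clear of the rest, whereas As2S2 and control libraries overlapped. The log2 fold change was 0.82 ± 0.07 for PMA (1.76-fold, adjusted p = 2.36e-08) and 0.01 ± 0.07 for As2S2 (adjusted p = 0.948, interval from -0.13 to 0.15). As2S2 against PMA was -0.81 ± 0.07 (adjusted p = 2.90e-08). CD37 had 92.4, 112 and 112 CPM in As2S2 libraries, 83.3, 85.7 and 84.1 in PMA libraries and 98.7, 138 and 99.8 in control libraries. It was lower with PMA by a log2 fold change of -0.41 ± 0.11 (adjusted p = 0.00472), and by -0.24 without control replicate 2 (adjusted p = 0.0147). Its As2S2 difference from control was -0.09 ± 0.11 (adjusted p = 0.573), and without control replicate 2 and As2S2 replicate 1 it was 0.17 with an adjusted p of 0.00524. Those were the highest control and the lowest As2S2 library for CD37, so leaving them out raises the value by itself. CD37 was higher in As2S2 than in PMA cells by 0.32 ± 0.11 (adjusted p = 0.0205), a call lost without As2S2 replicate 2 or 3 or PMA replicate 1 or 3. The gene overlaps TEAD2 on the opposite strand, which had 116, 234 and 74.5 counts in As2S2, PMA and control libraries.

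Lymphoid and monocyte markers were read beside these genes because CD53 and CD37 are known from those cells. MS4A1, a B cell surface marker, had 0 counts in every library, and the 7 B lymphoid markers summed to 7.58 to 7.88 CPM in As2S2 libraries, 3.08 to 3.71 in PMA libraries and 6.50 to 6.84 in control libraries. The 6 T lymphoid markers summed to at most 1.62 CPM in any library. The 10 monocyte and granulocyte markers summed to 46.9 to 51.9 CPM in As2S2 libraries, 56.8 to 61.6 in PMA libraries and 49.5 to 52.3 in control libraries. LYZ had a large part in the last sums, at 46.5, 51.4 and 51.7 CPM in PMA libraries and 30.5, 29.6 and 29.4 in control libraries. Genes of these lists went both ways with PMA. LYZ changed by 0.74 and CSF1R by 0.96, whereas ITGAM changed by -1.88 and CSF3R by -1.45. Among B lymphoid markers CD79B changed by 0.79, CR2 by -2.17 and CD79A, with 4 counts in PMA libraries, by -2.42. The part of these markers in the CD53 and CD37 values was not tested.

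CD81, a widely expressed tetraspanin that also serves as an entry receptor for hepatitis C virus, and CD82, first described as a suppressor of metastasis, differed from control by less than 2-fold in either treatment. CD82 had 98.7, 117 and 122 CPM in As2S2 libraries, 120, 123 and 131 in PMA libraries and 79.8, 88.9 and 77.0 in control libraries, and both treated groups lay above every control. The log2 fold change was 0.46 ± 0.09 for As2S2 (adjusted p = 0.000535) and 0.61 ± 0.09 for PMA (adjusted p = 1.36e-05), although on the TPM scale the PMA value was 0.13 and not called. CD81 had 91.8, 110 and 117 CPM in As2S2 libraries, 119, 119 and 126 in PMA libraries and 81.0, 117 and 82.0 in control libraries. Control replicate 2 lay level with the highest As2S2 library and close to the lowest PMA library, well above the other controls. The log2 fold change of CD81 was 0.38 ± 0.12 for PMA (adjusted p = 0.0107) and 0.19 ± 0.12 for As2S2 (adjusted p = 0.231). The PMA call was lost without control replicate 1 (adjusted p = 0.0635) or 3 (adjusted p = 0.0594), and its sign turned on the TPM scale (-0.13). In As2S2 cells CD81 was higher by 0.38 without control replicate 2 (adjusted p = 0.00147) and by 0.48 without As2S2 replicate 1 as well (adjusted p = 1.24e-07). Those were the highest control and the lowest As2S2 library for CD81, so leaving them out raises the value by itself. The direct difference, As2S2 against PMA, did not pass for CD82 (-0.15 ± 0.09, adjusted p = 0.146) or CD81 (-0.20 ± 0.12, adjusted p = 0.168).

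TSPAN33 and TSPAN4 showed the lowest responses to PMA together with CD37. TSPAN33 escorts the protease ADAM10 to the cell surface and is known from red cell formation in mice. It had 25.7, 27.8 and 30.1 CPM in As2S2 libraries, 17.3, 17.3 and 18.1 in PMA libraries and 24.4, 28.7 and 24.8 in control libraries. The PMA libraries were all below the other 6. In log2 terms TSPAN33 changed by -0.56 ± 0.10 for PMA (adjusted p = 0.000141), 0.10 ± 0.10 for As2S2 (adjusted p = 0.431) and 0.67 ± 0.10 for As2S2 against PMA (adjusted p = 2.80e-05). Without control replicate 2 and As2S2 replicate 1, its highest control and lowest As2S2 library, the As2S2 value was 0.24 and passed (adjusted p = 0.0224). TSPAN4, known from the migrasomes that moving cells leave behind, had 19.8, 22.9 and 22.1 CPM in As2S2 libraries, 23.8, 28.4 and 29.2 in PMA libraries and 22.8, 35.9 and 25.2 in control libraries. Its As2S2 value was -0.37 ± 0.14 with an adjusted p of 0.0504, just outside the threshold. Under DESeq2 that p was 0.0398, under limma-voom 0.0741, and without control replicate 1 it was 0.0165. Without control replicate 2 the value was -0.15 (adjusted p = 0.295), so that library sets much of its size. The PMA value of TSPAN4 was -0.04 ± 0.14 (adjusted p = 0.833, interval from -0.34 to 0.26), and As2S2 against PMA was -0.33 ± 0.14 (adjusted p = 0.0570).

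The order of levels was read from TPM, which divides by transcript length. In As2S2 cells the means were 504 TPM for CD63, 101 for CD151, 85.7 for CD53, 76.4 for CD37, 71.1 for CD81, 46.9 for CD82, 15.6 for TSPAN4, 9.27 for TSPAN33, 2.47 for CD9 and 1.48 for TSPAN9. In PMA cells the order was CD63 at 538 TPM, CD53 at 119, CD151 at 81.4, CD81 at 62.0, CD37 at 49.6, CD82 at 41.7, CD9 at 37.1, TSPAN4 at 16.0, TSPAN33 at 4.61 and TSPAN9 at 1.96. In control cells it was CD63 at 286 TPM, CD53 at 92.9, CD37 at 89.9, CD151 at 77.3, CD81 at 68.3, CD82 at 37.9, TSPAN4 at 22.4, TSPAN33 at 10.2, CD9 at 2.88 and TSPAN9 at 1.15. CD63 was thus the highest and TSPAN9 the lowest in each group, and CD9 stood ninth in As2S2 and control cells but seventh in PMA cells. Neighbours whose library ranges overlapped were CD151 with CD53 and CD37 with CD81 in As2S2 cells, and CD82 with CD9 in PMA cells. In control cells CD53 with CD37, CD37 with CD151 and CD151 with CD81 overlapped. The 10 genes summed to 914 ± 57.7 TPM in As2S2 cells, 951 ± 12.0 in PMA cells and 688 ± 30.8 in control cells (SD, n = 3 each). CD63 alone made 55.2%, 56.6% and 41.5% of that sum in As2S2, PMA and control cells, and CD9 made 0.272%, 3.90% and 0.417%.

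**Figure D2:**
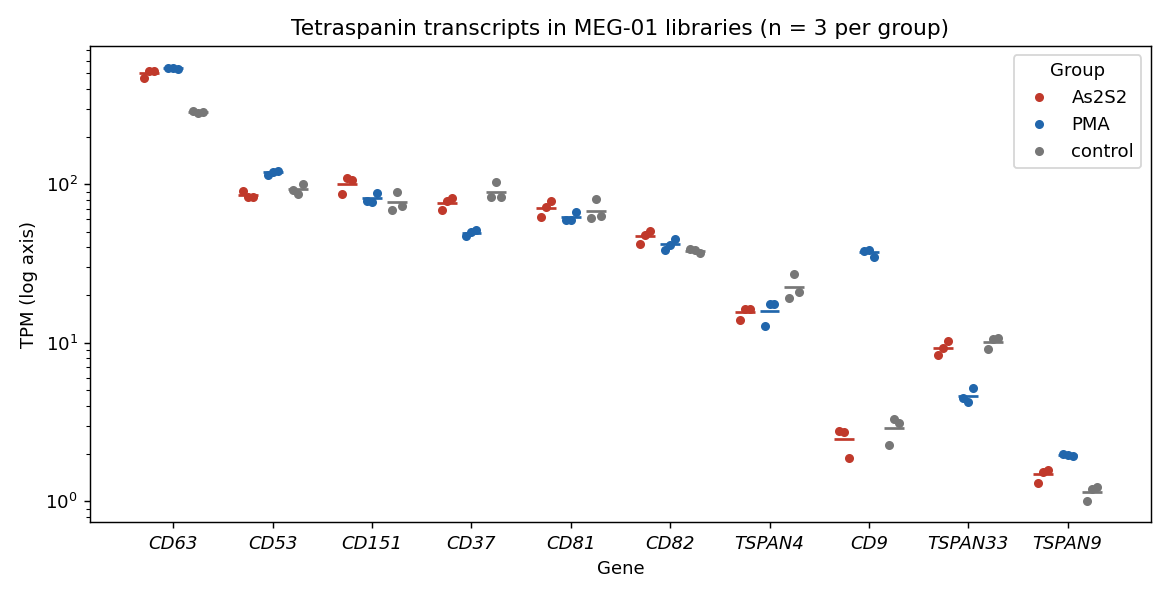
TPM of the 10 genes (log axis) in every library, with points for single libraries and short lines for group means, in the order As2S2, PMA and control for each gene. CD63 is the highest gene in all 3 groups, and CD9 lies near 37.1 TPM in PMA cells but at 2.47 and 2.88 TPM in As2S2 and control cells.

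The size of the PMA values depended on how libraries were scaled. With library totals in place of TMM the median of all genes for PMA against control was -0.26, and with log2(TPM + 0.1) it was -0.40. The share of called genes that were higher with PMA was 49.7% under TMM and 31.3% under library totals. CD9, CD63, CD53 and TSPAN9 were higher and CD37 and TSPAN33 lower with PMA under each scaling tried. CD81, CD82 and CD151 were not called on the TPM scale, where the median of all genes itself lay at -0.26 or -0.40, depending on the pseudocount of 1 or 0.1. TSPAN4 was called lower with PMA there (-0.46 at log2(TPM + 1), adjusted p = 0.0206).

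**Figure D3:**
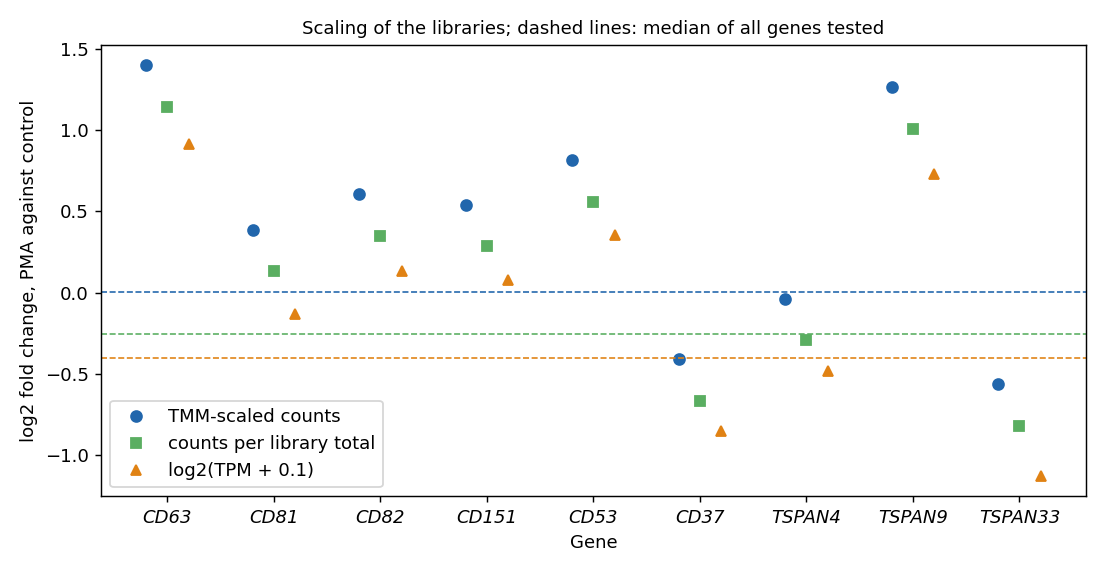
Log2 fold change of PMA against control for 9 of the genes (CD9 left out because it lies above the axis) under 3 scalings, shown by circles for TMM-scaled counts, squares for library totals and triangles for log2(TPM + 0.1); dashed lines are the median of all genes tested under each. The order of the genes is much alike in each scaling while all move down together, and CD81 passes below 0 on the TPM scale (-0.13).

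Of 23 other tetraspanin genes 12 passed the filter on low counts, and the response to PMA was not limited to the 10 members. In PMA cells 8 of the 12 were higher and none lower in edgeR, against 30.8% and 31.1% of all genes. None was lower at an unadjusted p under 0.05 or by DESeq2, and 1 was lower under library totals. For PMA 7 were higher and 2 lower at log2(TPM + 1), and 7 higher and 1 lower at log2(TPM + 0.1). Without control replicate 2 and As2S2 replicate 1, 8 were higher and 1 lower with PMA. In As2S2 cells 6 were higher and 1 lower, against 20.3% and 19.6% of all genes, but on both TPM scales 2 were higher and 1 lower. Under library totals the As2S2 counts were 4 and 1. TSPAN6, chosen after its values were seen, was above 1 CPM only in PMA libraries and so passed the filter through the group where it is high. Leaving it out, 7 of 11 were higher with PMA and 6 of 11 with As2S2, and the medians were 0.91 and 0.29. TSPAN13 had 233, 255 and 233 CPM in PMA libraries and 5.82, 5.79 and 6.14 in control libraries, a log2 fold change of 5.34 ± 0.09 (adjusted p = 8.26e-17). Its As2S2 libraries had 9.50, 8.81 and 8.63 CPM (0.60 ± 0.10, adjusted p = 0.000175). TSPAN5 and TSPAN17, which like TSPAN33 escort ADAM10, rose with PMA by 1.62 and 0.94 and with As2S2 by 0.35 and 0.45. TSPAN15, another ADAM10 escort, fell with As2S2 by 0.59, and TSPAN14 rose with As2S2 by 0.29. TSPAN3 rose with PMA by 0.84. ADAM10 itself was at 38.0 CPM in As2S2 cells, 59.3 in PMA cells and 44.0 in control cells, and rose with PMA by 0.43 ± 0.11 (adjusted p = 0.00315). TSPAN18 rose with PMA by 1.84, TSPAN12 by 1.51 and TSPAN31 by 0.91, and the photoreceptor tetraspanin ROM1 rose with As2S2 by 0.63.

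**Figure D4:**
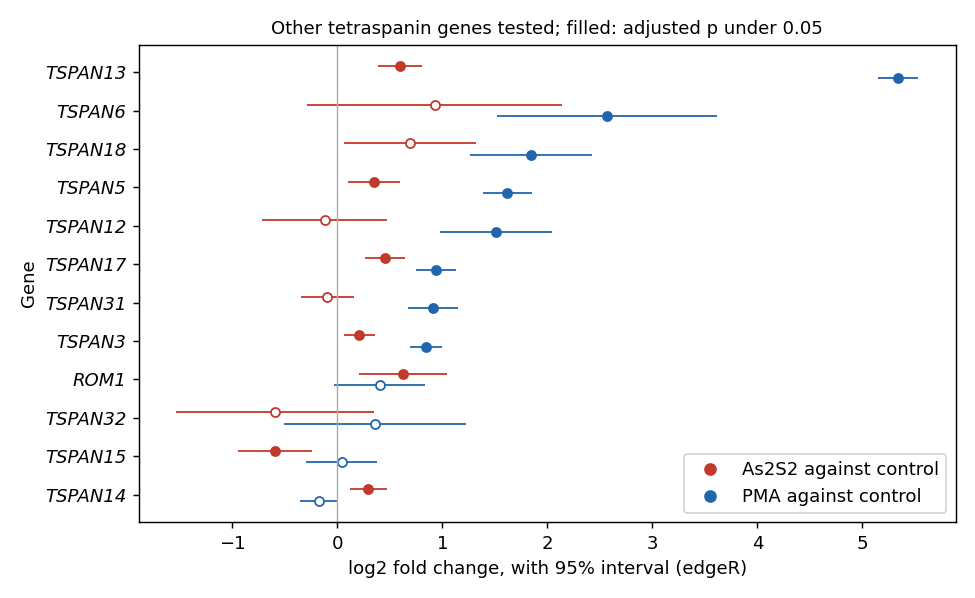
Log2 fold change of the 12 other tetraspanin genes that were tested, in As2S2 against control (red, upper of each pair) and PMA against control (blue, lower), with 95% intervals and filled points for an adjusted p under 0.05. TSPAN13 has the highest PMA value, 5.34, and a lower As2S2 value, 0.60.

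Transcripts of proteins that tetraspanins bind moved both ways, beside 39.9% of all genes called in either direction with As2S2 and 61.9% with PMA. Of 17 such partners tested, 3 were higher and 4 lower with As2S2, and 6 were higher and 7 lower with PMA, with medians of -0.13 and 0.14. TIMP1, the ligand of CD63, had 320, 365 and 380 CPM in As2S2 libraries, 2501, 2486 and 2470 in PMA libraries and 219, 276 and 213 in control libraries. It was higher with PMA by 3.40 ± 0.10 (adjusted p = 8.11e-14) and with As2S2 by 0.59 ± 0.09 (adjusted p = 9.29e-05). ITGB3, the beta chain of the platelet fibrinogen receptor, rose by 2.42 with PMA and by 0.82 with As2S2, whereas its alpha chain ITGA2B fell by 1.05 and by 0.33. SDCBP (syntenin), which binds the CD63 tail, rose by 1.27 with PMA and 0.82 with As2S2. PTGFRN, an immunoglobulin protein that binds CD9 and CD81, fell by 1.13 with PMA. The integrin chain ITGA4 fell by 1.42 with PMA and 1.26 with As2S2, and CD36, a platelet scavenger receptor, fell by 1.80 with PMA and 1.13 with As2S2. Without control replicate 2 and As2S2 replicate 1, the As2S2 counts of partners were 4 higher and 7 lower.

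Genes of the compartments where CD63 resides were described from the same kind of lists. Of 18 ESCRT and vesicle-release genes, which sort membrane proteins into vesicles, 5 were higher and 3 lower with As2S2 (5 lower without control replicate 2 and As2S2 replicate 1), and 6 higher and 3 lower with PMA, with medians of 0.08 and 0.06. FLOT1, HGS and RAB27B (a regulator of granule release) rose with As2S2 by 0.63, 0.57 and 2.73, and RAB27B had only 93 counts in the 3 As2S2 libraries and 15 in the control libraries. RAB27B was at 1.25, 1.51 and 2.04 CPM in As2S2, 0.493, 1.16 and 0.753 in PMA and 0.370, 0.155 and 0.178 in control libraries. It thus passed the filter on low counts through the group where it is high, and it is among the 5 counted as higher. CHMP4A, VPS28 and VPS37B fell with As2S2 by 0.47, 0.55 and 0.33. With PMA CHMP2A rose by 1.09, CHMP4B by 0.56 and VTA1 by 0.59, while RAB27A fell by 0.90, CHMP4A by 0.44 and VPS4A by 0.23. All genes tested had 39.9% called with As2S2 and 61.9% with PMA. The balance of the list turned with the scaling, and that of all 14592 genes tested turned too. Under library totals 4 of the list were higher and 9 lower for PMA, where 2955 of all genes were higher and 6476 lower. On the TPM scales 2 were higher and 4 lower for As2S2 and 1 higher and 9 lower for PMA. At log2(TPM + 1) all genes had 1685 higher and 3066 lower for As2S2, and 1971 higher and 6984 lower for PMA. Of 20 late endosome and lysosome genes, 8 were higher and 1 lower with As2S2, and 11 higher and 4 lower with PMA, or 7 higher and 6 lower for PMA under library totals. Their medians were 0.09 and 0.34, and without control replicate 2 and As2S2 replicate 1 the As2S2 counts were 7 higher and 2 lower. The lysosomal membrane protein LAMP1 rose by 0.86 with As2S2, the cholesterol carriers NPC1 and NPC2 by 0.76 and 0.86, and HPS1 fell by 0.59. With PMA NPC2 rose by 1.91 and CD68 by 1.37. AP3B1 and AP3D1, subunits of the adaptor that carries CD63 to lysosome-related organelles, fell by 1.11 and 0.96, and HPS4 fell by 0.36.

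The genes whose profile over the 9 libraries was most like CD9, by Pearson correlation of log2 CPM among the 9774 genes that averaged 5 CPM or more, were HCCS, LIPC, RPL17-C18orf32, RPL36AP37 and TSC22D1, with r from 0.996 to 0.999. For CD63 they were TMSB10, TPBG, NDUFA2, SPHK1 and RIC8A, with r from 0.995 to 0.998. The libraries form 3 groups, so r mostly reads the pattern over the groups, and the size of the change differed: HCCS differed by 1.06 and TSC22D1 by 3.04 with PMA. RPL17-C18orf32 and RPL36AP37 share sequence with ribosomal protein genes, and their counts are uncertain.

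In the authors' deposited table, which marked genes only past a log2 fold change of 1, 3 members were marked higher with PMA: CD9 at 4.14, CD63 at 1.37 and TSPAN9 at 1.24. None of the 10 was marked with As2S2 in the authors' deposited table. The authors marked 941 genes with As2S2 and 3126 with PMA. With As2S2, CD63 (0.92, adjusted p = 6.68e-22 by DESeq2), CD151 (0.50, 0.00114) and CD82 (0.45, 0.000340) fell short only on the fold change. No other member had an adjusted p under 0.05 there with As2S2.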

How the data were processed

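RNA of 9 MEG-01 libraries was poly(A)-selected and made into libraries with the NEBNext Ultra II kit, per the labels' protocols. The tools named for the reads and their comparison are fastp 0.22.0 and DESeq2, per the submitters' processing notes, which name zebrafish builds although the IDs are human. No source used here names the aligner, counter, annotation or strand setting. The authors deposited, per the file headers, estimated counts (expected counts, not normalized) and TPM per gene and library, with a log2 fold change, a ratio (linear fold) and an adjusted p-value for each treatment against control. Control columns were repeated across tables with 0 differing values.

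The counts were rounded to whole numbers, filtered with filterByExpr and given TMM factors. A single model of the 3 groups over the 9 libraries was fitted in edgeR 4.0.16 (R 4.3.3). Contrasts were tested with the quasi-likelihood F-test and Benjamini-Hochberg adjustment over all 14592 genes, at a threshold of 0.05. On simulated data, 80.9% of changes of log2 1 were called for As2S2 against control, 85.6% for PMA against control and 87.0% for As2S2 against PMA. Changes of log2 0.5 were called in 52.1%, 55.7% and 39.2%, and false calls were 3.10%, 5.04% and 8.53% of calls, in that order of comparisons. The simulation changed few genes, equally up and down, and held no library that stood apart. In the data 39.9% to 61.9% of genes were called and some libraries stood apart, so these rates may not hold for the comparisons here. Alternatives used limma 3.58.1 and DESeq2 1.42.0. IDs were matched to symbols for 42338 of 63241 genes, and overlapping genes were taken from GENCODE. The members and gene lists were chosen with earlier results of these data known. Named genes were all members, up to 3 genes per list and direction with the smallest adjusted p in each treatment against control, other tetraspanins with a mean of at least 1 CPM, and the 5 genes most like CD9 and CD63. A gene chosen this way is not reported here. Errors of CPM and TPM are SDs over 3 libraries.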

Additional observations from a re-analysis of the deposited data

How the results depend on the processing

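Over 24 alternatives, 627 of 720 member values kept their direction and side of the threshold, 34 lost the call, 26 gained it and 33 changed sign. CD9, CD63 and TSPAN9 for PMA against control and CD9 for As2S2 against PMA kept theirs in all 24.

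For As2S2 against control, 1 member (TSPAN4) was lower under RLE, upper-quartile, DESeq2, no filter, both TPM scales, library totals and the replicate block. No member passed higher, and 1127 genes passed, at an absolute log2 fold change of at least 1. Without control replicate 2 and As2S2 replicate 1, which were picked after their values were seen, 7 members were higher. For PMA, 4 members were higher and 3 lower on both TPM scales, where log2(TPM + 1) had 1971 of all 14592 genes higher and 6984 lower. At an absolute log2 fold change of at least 1 there were 3 members higher, 0 lower and 3060 genes for PMA. For As2S2 against PMA, 3 members were higher on both TPM scales and 2 under TMM, so a member whose sign turned gained a call. At log2(TPM + 1) 5968 of all genes were higher and 2320 lower in that comparison. There 1 member was higher at a threshold of 0.01, and 2 were lower with log2(TPM + 0.1). At a log2 fold change of at least 1 there were 0 higher, 1 lower and 3016 genes for As2S2 against PMA. Leaving out each replicate gave 4729 to 6320 genes and 4 to 5 members higher and 0 to 1 lower for As2S2, 8282 to 9495 genes and 6 to 7 higher and 2 lower for PMA, and 8159 to 9568 genes, 1 to 2 higher and 4 to 6 lower for As2S2 against PMA.

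Signs turned mostly for values near 0. For As2S2 against control CD53 was -0.021 (upper-quartile), -0.0058 (no filter), -0.014 (only the 2 groups compared), -0.11 (both TPM scales), -0.076 (library totals) and -0.029 (without both libraries named above), where CD37 was 0.17, and TSPAN33 was -0.12 with log2(TPM + 1) and -0.13 with log2(TPM + 0.1). Leaving out single replicates, CD53 ran from -0.021 to 0.048, CD37 from -0.16 to 0.089 and CD9 from -0.22 to 0.044. For PMA CD81 was -0.13 on both TPM scales, and TSPAN4 was 0.17 without both libraries and ran from -0.17 to 0.17 without single ones. For As2S2 against PMA both TPM scales gave 0.19 for CD81, 0.16 and 0.17 for CD82 and 0.30 for CD151. CD151 was 0.0057 with no filter, 0.078 without both libraries, 0.15 with library totals, 0.074 with centred TPM and -0.083 to 0.078 without single replicates, and CD82 was 0.029 with library totals. The cause was not tested.

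The share of called genes that were higher was 35.5% to 61.2% over the scalings for As2S2 against control (50.9% under TMM), 21.9% to 60.0% for PMA (49.7%) and 45.8% to 72.3% for As2S2 against PMA (50.2%). Correlations between groups ran from -0.073 to 0.15 for libraries with the same replicate number and from -0.21 to 0.15 for those with different numbers. With 3 libraries per group, some of which stood apart, these values cannot settle whether the numbers pair the libraries. With the replicate block, 28 of the 30 member values stayed as called and 2 gained a call, among them TSPAN4 for As2S2 against control (adjusted p = 0.0150). The lowest member counts, 47 in a library for CD9, limit what could be seen for CD9 in As2S2 and control cells.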
